A study of Mus musculus with 219 samples.

Results

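The genes described here encode the nuclear-encoded subunits of the mitochondrial respiratory chain. They were taken as all protein-coding genes of GENCODE mouse release 21 with a symbol of the form Nduf followed by a, b, c, s or v and a number, Uqcr, Cox4 to Cox8 followed by a letter, Atp5, or Sdha to Sdhd. The rule found 84 of the 55487 genes in each count table: 36 of complex I, 4 of complex II, 8 of complex III, 18 of complex IV and 18 of complex V. They lie on 19 chromosomes, and Ndufa1, Ndufb11 and Cox7b are X-linked. Of these, 81 had enough counts to be tested, in the atlas and at ZT6 alike. The testis isoform genes Cox7b2 and Cox8c, with 0.137 and 0.000709 CPM (read counts scaled to a common library size) in the atlas, did not, and neither did a second gene annotated as Atp5o, which had 0 counts.

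RNA came from left prefrontal cortex of mice. The atlas held 92 wild-type mice (WT/WT, Snord116+/+Ctg-/-) of about 12 weeks housed in home cages on a 12:12 light cycle, 6 of each sex at each of 8 zeitgeber times (ZT, hours after lights on) except 5 at ZT18 and ZT21. A further 126 mice were collected at ZT6. They had been moved at about 8 weeks to light-controlled incubators at 22 °C for 7 days of acclimation and 22 days of entrainment to a 12:12 or an 11:11 light cycle. The calorimetry set (CLAMS, chambers for indirect calorimetry) was collected in constant darkness, and the running wheel set (RW) in the light cycle. Each set held both sexes, both light cycles and 4 genotypes: WT/WT as above, HET/WT with Snord116+/- and Ctg-/-, WT/TG with Snord116+/+ and Ctg+/-, and HET/TG with Snord116+/- and Ctg+/-. Each group of set, sex, light cycle and genotype had 4 libraries, with 3 in the WT/TG males of the calorimetry set on 11:11 and of the running wheel set on 12:12. One labelled running wheel male was not analysed here. The labels do not say what Ctg stands for, and the 2 sets also differ in the light at collection. For the calorimetry set, collected in constant darkness, ZT6 is the labelled time and not hours after lights on. There the light cycle cannot be told apart from the time on the internal clock at collection.

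The respiratory chain of the inner mitochondrial membrane passes electrons from NADH (complex I) and succinate (complex II) through complexes III and IV to oxygen, and complex V, the ATP synthase, uses the resulting proton gradient to make ATP. Most subunits are encoded in the nucleus, and a small group, including the catalytic core of complex IV, is encoded in mitochondrial DNA. Neurons draw most of their ATP from this chain, and nuclear respiratory factor 1 (NRF1), the ETS factor GABPA and other regulators are known to act on many of its promoters. Ndufa4 falls under complex I by its name but is known as a complex IV subunit, Cox7a2l is a factor of supercomplex assembly and Atp5s a factor of the ATP synthase. Cyc1 and Ndufab1 fall outside the rule.

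Promoter sequences from RefSeq on GRCm38.p6 were matched for 68 of the 83 member symbols, and the 250 bases before each start were searched on both strands. The NRF1 motif GCGCATGC was found in 8 of the 68, or 11.8%, and in 3.32% of 17492 protein-coding genes. The 8 were Atp5g2, Atp5k, Atp5l, Cox6a1, Ndufa11, Ndufa6, Ndufa8 and Sdhb. The ETS motif CCGGAAGT was found in 4.41% of members and 4.26% of all genes, the CREB motif TGACGTCA in 5.88% and 2.2%, and the E-box CACGTG, the letters the clock factors bind, in 8.82% and 7.61%. The ERR alpha motif TCAAGGTCA and the YY1 motif AAGATGGCG were each found in 1 member (1.47%), against 0.36% and 0.84% of all genes. The E-box and CREB letters read the same on both strands, and overlaps between motifs were not removed. Parts of 3 of these promoters are shown for what such a match looks like in genes of the chain, each on the minus strand of GRCm38.p6 and written 5′ to 3′ with the motif in capitals. They lie at chr9:44920950-44920992 for Atp5l, chr15:82354342-82354399 for Ndufa6 (both NRF1, shown as its reverse complement) and chr10:80406855-80406912 for Uqcr11 (ETS).
Atp5l: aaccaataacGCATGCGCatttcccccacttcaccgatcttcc
Ndufa6: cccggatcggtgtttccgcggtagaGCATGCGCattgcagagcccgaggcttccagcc
Uqcr11: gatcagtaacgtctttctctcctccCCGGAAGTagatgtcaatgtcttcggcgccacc
A match is a description of letters. No binding was measured, and no comparison here tests these motifs.

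Libraries held 12995491 to 18420258 counts in the atlas and 12737699 to 29856536 at ZT6. Together the subunit genes took 0.531 to 0.744% of the counts in atlas libraries, and 0.199 to 1.09% at ZT6, where the lowest was a WT/TG female of the running wheel set on 11:11. The labelled tissue carried its defining markers: the pan-neuronal Snap25 averaged 2300 CPM and the cortical excitatory marker Slc17a7 1010 CPM in the atlas. The summed level of 8 striatal markers ran from 118 to 1550 CPM across atlas libraries. The Snord116 host transcript Snhg14 had a median of 188.2 CPM in WT/WT and 33.23 CPM in the libraries labelled HET/WT. Among running wheel females on 11:11, replicate 3 labelled HET/WT stood at 167.3 CPM and goes against its label. It was kept, and no count of called subunit genes changed by over 1.5 times without it. Libraries also differ in how counts relate to transcript length. The length slope is the change of a library's log2 CPM, relative to each gene's mean, per doubling of exon length over all genes tested except the subunit genes. It is low where short transcripts are relatively abundant.

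Levels between genes were compared per kilobase of transcript in the atlas. Complex I subunit genes had a median of 49.2 CPM per kb (21 to 236), complex II 49.7 (16.8 to 99.9), complex III 94.2 (46.7 to 137), complex IV 106 (0.51 to 355) and complex V 101 (6.03 to 402), over the genes tested. The 236 of complex I is Ndufa4 and the 6.03 of complex V is Atp5s, both placed by name, and Ndufa3 followed in complex I at 113. The highest of all was Atp5b, the catalytic beta subunit of ATP synthase, at 402 ± 18.4 CPM per kb (SD, n = 92). Next came Cox4i1, the ubiquitous isoform of the regulatory subunit 4 of complex IV, at 355 ± 23 CPM per kb, and Cox8a, a small subunit of the same complex, at 302 ± 19.1. The ± 1 SD ranges of these 3 genes did not meet, whereas those of Cox6a1 (238 ± 16), Ndufa4 (236 ± 14.8), Atp5a1 (229 ± 10.5) and Cox6c (217 ± 13.2) each overlapped with the next in that order. Among the complex IV isoform pairs the ubiquitous form dominated in this cortex. Cox4i1 averaged 264 CPM and its hypoxia-linked partner Cox4i2 0.847, Cox6a1 136 and the muscle form Cox6a2 3.36, Cox6b1 103 and the testis form Cox6b2 0.744, Cox7a2 66.4 and the muscle form Cox7a1 0.851, and Cox8a 166 and Cox8b 0.183. The 3 genes for subunit c of the ATP synthase rotor, which encode the same mature protein, were all expressed, with Atp5g3 at 103, Atp5g1 at 64.5 and Atp5g2 at 26 CPM.

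Over the day the subunit genes were nearly flat. A 24 h rhythm was called for 11 of 81 (13.6%), while 41.4% of all 17193 genes tested were called rhythmic. The median peak-to-trough difference of the members was 0.039 on the log2 scale, and 9 of the 11 called had a difference under 0.1. The 2 others were Ndufb2 and Cox6a2. Ndufb2, an accessory subunit of the complex I membrane arm, had medians of 12.66, 13.26, 11.65, 10.84, 11.27, 12.81, 12.78 and 13.11 CPM at ZT0, 3, 6, 9, 12, 15, 18 and 21. Its libraries ran from 8.881 to 12.66 CPM at ZT9 and from 11.6 to 15.31 CPM at ZT21, so the trough and peak overlapped. The fitted peak was at 21.5 h (95% interval 20.2 to 22.9) and the peak-to-trough difference was 0.26 ± 0.05 (SE; edgeR adjusted p = 3.03e-05). Ndufb2 overlaps Braf on the other strand and Gm42420 on its own, so its counts are uncertain.

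Cox6a2, the muscle isoform of subunit 6A, was low throughout, with medians between 2.916 CPM at ZT3 and 3.881 CPM at ZT15. Single libraries ran from 2.429 to 3.439 CPM at ZT3 and from 2.275 to 4.681 CPM at ZT15. Its difference was 0.26 ± 0.08 with a peak at 14.1 h (11.9 to 16.3, edgeR adjusted p = 0.0137). Atp5g1 had its lowest median at ZT12, 62.46 CPM, and its highest 3 h later at ZT15, 69.36 CPM. The ranges of these times overlapped (58.35 to 67.07 and 63.18 to 71.38 CPM), and the fitted peak was at 18.6 h (17 to 20.1; 0.099 ± 0.021, edgeR adjusted p = 0.000284).

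The other called genes moved less. In complex I Ndufs1, a core subunit that carries iron-sulfur clusters, peaked near the change from light to dark, at 11.8 h (0.073 ± 0.019, edgeR adjusted p = 0.00362). Ndufs3 peaked at 9.9 h (0.079 ± 0.024, adjusted p = 0.0221) and Ndufv3 at 4.5 h (0.082 ± 0.028, adjusted p = 0.0426). Sdhb, the iron-sulfur subunit of succinate dehydrogenase, peaked at 9.7 h (0.065 ± 0.019). The core proteins of complex III peaked at 13.1 h (Uqcrc1, 0.057 ± 0.020) and 12.8 h (Uqcrc2, 0.066 ± 0.019), and Atp5a1, the alpha subunit of ATP synthase, at 14.7 h (0.059 ± 0.018). Of the 11 peaks, 8 lay from 8 to 16 h. The share of all rhythmic genes peaking in that window is not given here, so these peaks cannot be called particular to the subunit genes. With replicate 1, 3 or 5 left out of every group 4, 6 or 7 members were called, and 3 or 5 in females or males alone. No member was called for a sex difference of the rhythm (0 of 81, and 0.0756% of all genes, in edgeR). At an unadjusted p under 0.05 there were 2 members and 1334 of all 17193 genes, and DESeq2 called 0 members.

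**Figure D1:**
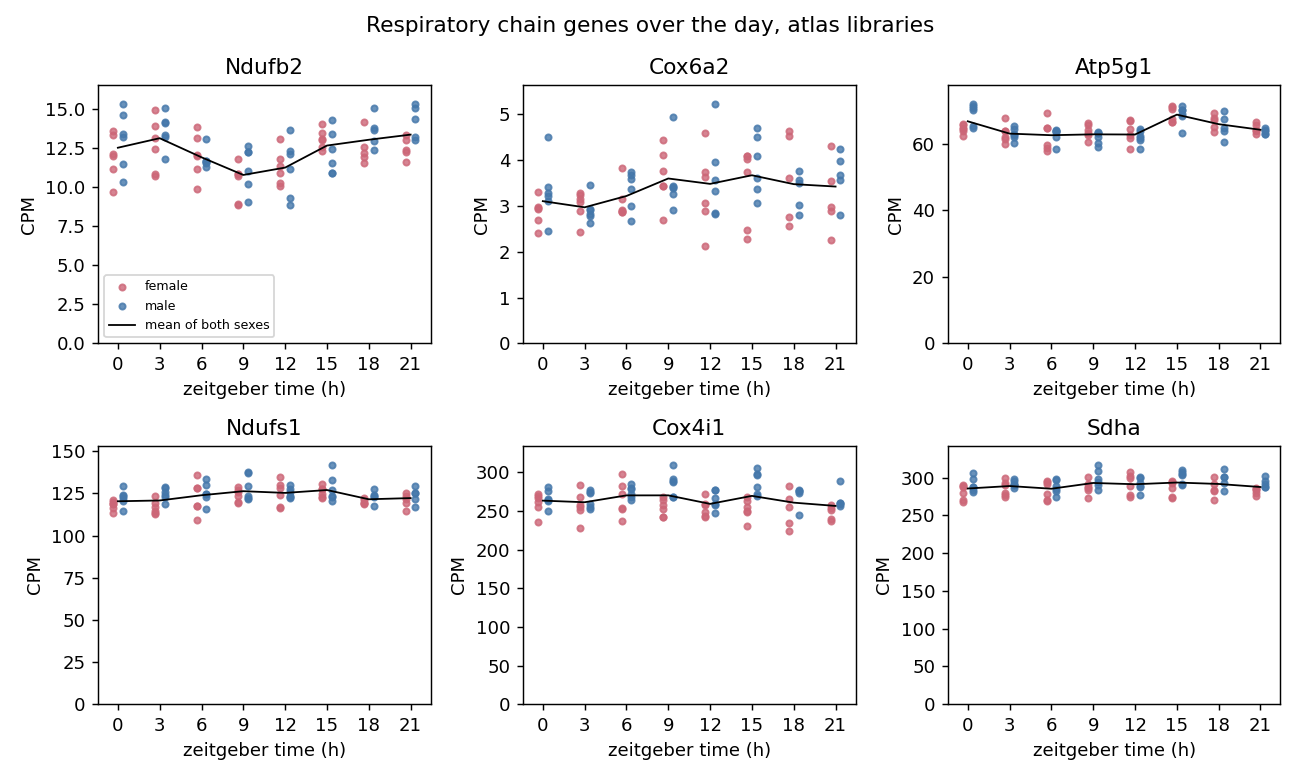
CPM (y axis, from 0) against zeitgeber time in hours (x axis) for 6 subunit genes in the 92 atlas libraries. Points are libraries, with females in red and males in blue, and the line is the mean of both sexes at each time. Ndufb2 dips at ZT9, Atp5g1 steps up at ZT15, and Cox4i1 and Sdha stay level.

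Outside the rule, the same fit called all 15 core clock genes rhythmic (median 0.624). Among mitochondrial lists, 11 of 15 regulators of mitochondrial biogenesis were called (median 0.157) and 20 of 48 assembly factors (median 0.094). The mitochondrially encoded subunits had 4 of 13 called (median 0.162), citrate cycle enzymes 7 of 21 (median 0.049) and glycolysis enzymes 7 of 18 (median 0.047). Cytosolic ribosomal protein genes had 30 of 75 called (median 0.069).

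In the atlas most subunit genes were slightly higher in males. A sex difference was called for 48 of 81, of which 47 were higher in males, and for 41.1% of all genes tested (21% higher in males). The members' median was 0.052 (all genes -0.001), and the highest was Ndufb6 at 0.124 ± 0.022 (edgeR adjusted p = 1.18e-06). The atlas columns of males and females also carry separate name prefixes in the labels, so sex cannot be told apart from how libraries were grouped. In complex II all 4 subunit genes were called. Sdhd, a membrane anchor of succinate dehydrogenase, ran from 38.65 through a median of 43.13 to 48.47 CPM in females and from 41.71 through 46.95 to 54.66 CPM in males (log2 difference 0.11 ± 0.02, edgeR adjusted p = 2.46e-08). In complex I Ndufs7 had the smallest p, running from 33.79 through a median of 39.16 to 45.19 CPM in females, while males ran from 38.77 through 41.67 to 48.37 CPM (0.12 ± 0.02, adjusted p = 3.23e-08). Both genes overlapped widely between the sexes.

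Complex III had 6 of 8 called, among them the core protein gene Uqcrc1 (0.090 ± 0.014, adjusted p = 1.36e-07) and the Rieske protein gene Uqcrfs1 (0.094 ± 0.017). Complex IV had 8 of 16, with Cox4i1 at 0.090 ± 0.017 (255.1 CPM in females and 272.1 CPM in males as medians) and Cox7c at 0.094 ± 0.017. Complex V had 9 of 17, with Atp5b at 0.070 ± 0.012. The exception was Cox4i2, which was lower in males (-0.27 ± 0.09, edgeR adjusted p = 0.0161; medians 0.9129 CPM in females and 0.7605 CPM in males). The 13 mitochondrially encoded subunits lay on the other side, with 9 lower in males, 0 higher and a median of -0.178, for example mt-Cytb at -0.25 ± 0.03. Cytosolic ribosomal protein genes were called in 73 of 75 cases, 72 of them higher in males (median 0.122). All 8 striatal markers were lower in males, and summed to 118 to 512 CPM in males (median 169) and 148 to 1550 CPM in females (median 595). All 5 blood markers were higher in males. Their part in the subunit difference was not tested. Fewer cells of a type and less RNA per cell cannot be told apart in such bulk samples.

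At ZT6 the differences between the 4 set and sex blocks of libraries were larger. Of the 81 subunit genes 77 were called higher in males and none lower, and 58.1% of all 18841 genes tested were called. The members' median was 0.485, against -0.011 over all genes. Calorimetry libraries exceeded running wheel libraries for 78 of 81 (62.2% of all genes called; median 0.537, against -0.016 over all genes). By sex, 66 rose and 5 fell among females (43.6% of all genes called), and 79 rose among males (65% called). These library blocks have separate name prefixes in the labels, so set and sex at ZT6 cannot be told apart from how libraries were grouped.

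The ladder was clearest in small subunits. Uqcr10, a small subunit of complex III, had medians on 12:12 of 24.5 CPM in running wheel females, 41.25 in running wheel males, 48.05 in calorimetry females and 104.4 in calorimetry males. The calorimetry males (73.07 to 140.1 CPM) overlapped with no other block on 12:12. Its set difference was 1.00 ± 0.03 (edgeR adjusted p = 5.83e-56). Atp5e, the epsilon subunit of the ATP synthase stalk, had medians of 20.76, 35.77, 43.68 and 148.4 CPM in the same order, and a set difference of 1.40 ± 0.05 (adjusted p = 2.61e-45). Cox4i1 had 187.5, 226.4, 280.1 and 768.4 CPM, and again the calorimetry males stood alone at 510.3 to 981.7 CPM.

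Sdha, the flavoprotein subunit of succinate dehydrogenase with 1992 coding bases, had medians of 280.3, 272.7, 275 and 283.2 CPM, and differed by 0.008 ± 0.013 between sets (adjusted p = 0.61) and by 0.004 ± 0.013 between sexes (adjusted p = 0.832). Among females Sdha (-0.079 ± 0.019), Sdhc (-0.090 ± 0.026), Ndufv1 (-0.11 ± 0.03) and Atp5b (-0.057 ± 0.020) were 4 of the 5 genes called lower in the calorimetry set. Among males all 4 complex II genes, Sdha among them, were called higher there (0.1 to 0.72). The Sdha set difference over both sexes thus averages opposite differences. Across the 81 genes the set difference fell with coding length (Pearson r = -0.69, across genes, which are not independent replicates; -0.47 over 14918 coding genes). Of the genes of at most 600 coding bases 59 of 61 were called, with a median of 0.703, and of the longer ones 19 of 20, with a median of 0.204.

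The length slope moved with these blocks. Its median was 0.068 in running wheel females, 0.008 in running wheel males, -0.004 in calorimetry females and -0.074 in calorimetry males, while the mean log2 CPM of the subunit genes had medians of 4.95, 5.34, 5.4 and 6.07. With the slope as a covariate 63 of the 78 genes called between sets kept their call and direction, and 65 of the 77 called between sexes. With a slope on coding transcript length, added after the data were seen, 38 and 31 did. Sdhc then turned to -0.17 between sets, and Sdhb to -0.040 (adjusted p = 0.718). Among other gene families, 75 of 76 cytosolic ribosomal protein genes were called higher in the calorimetry set (median 0.827), as were 71 of 77 mitochondrial ribosomal protein genes (median 0.337). Glycolysis enzymes had 3 higher and 14 lower of 18. Blood markers (4 of 5 higher; sums of 44.3 to 376 CPM against 39.2 to 174) and striatal markers (7 of 8 lower; 131 to 1150 against 138 to 1450 CPM) also moved with set. So did oligodendrocyte markers (5 higher and 1 lower of 7; 3170 to 7990 against 2360 to 4760 CPM) and choroid plexus markers (4 of 6 lower; medians of 14.3 and 51.4 CPM). The part of these markers was not tested.

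**Figure D2:**
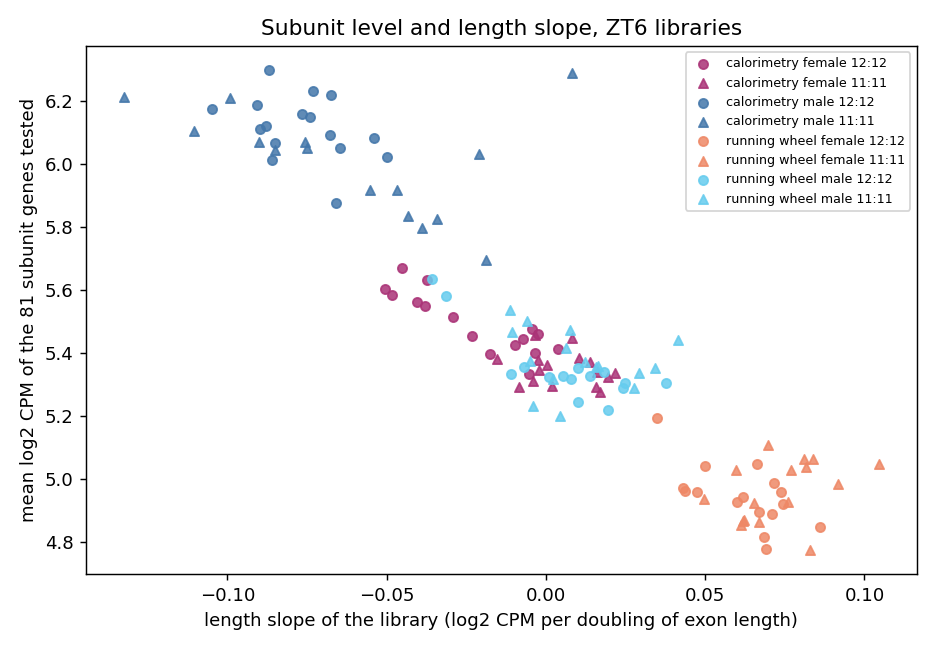
Mean log2 CPM of the 81 tested subunit genes (y axis) against the length slope of the library (x axis, log2 CPM per doubling of exon length) for the 126 ZT6 libraries. Each point is a library, coloured by set and sex, with circles for 12:12 and triangles for 11:11. Running wheel females lie at the lower right and calorimetry males at the upper left, with 1 calorimetry male on 11:11 apart at a slope of 0.008.

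**Figure D3:**
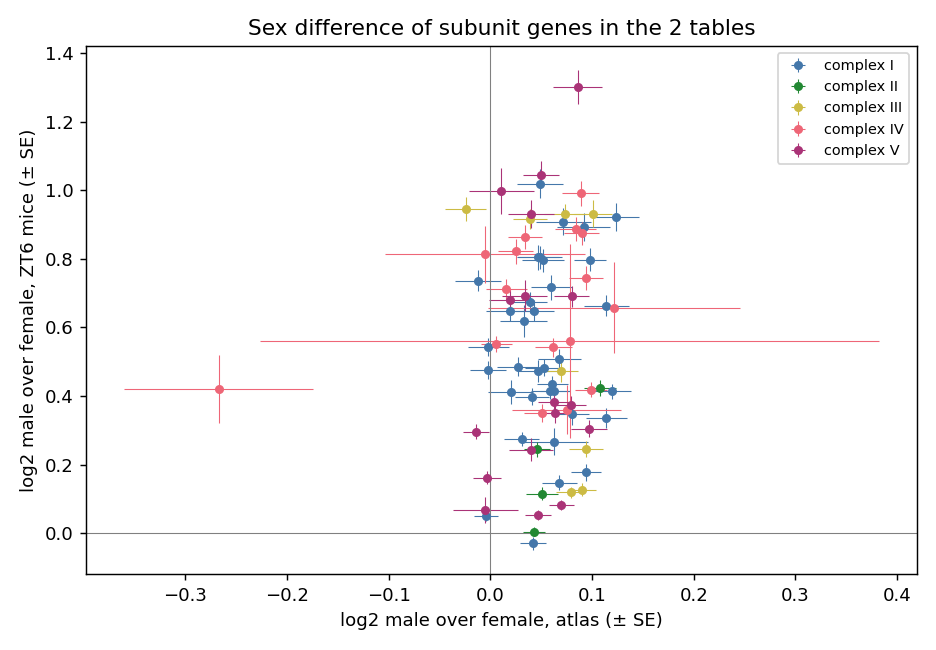
Log2 male over female difference of the tested subunit genes shown in the atlas (x axis) and at ZT6 (y axis), each with its standard error and coloured by complex. The tables were fitted separately; the median is 0.052 in the atlas and 0.485 at ZT6, and Cox4i2 is the point at the far left.

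The light cycle comparison set mice on the shorter 11:11 day against mice on 12:12. Over both sets 29 of 81 subunit genes were called, 28 lower on 11:11 and Sdha higher (0.045 ± 0.013, edgeR adjusted p = 0.0142), against 12.6% of all genes. The members' median was -0.054. Fitted along with the length slope, 12 of the 29 were kept, without Sdha, which stood at 0.039 (adjusted p = 0.0837), and without replicate 3 of every group 17 were called. With the coding transcript length slope 6 of the 29 were kept, among them Sdha at 0.05 (edgeR adjusted p = 0.0224). The difference was found in the calorimetry mice, where 47 of 81 were called and 46 of these were lower on 11:11, with a median of -0.129. In that comparison 19.6% of all genes were called, 9.13% of all genes as lower, and the median of all genes was -0.005. In running wheel mice 0 of 81 were called (0.069% of all genes; edgeR; 6 at an unadjusted p under 0.05; 0 in DESeq2), with a median of 0.015. Over all 18841 genes, 1405 had an unadjusted p under 0.05 in running wheel mice. The difference between the sets was tested directly: 29 of 81 were called, 28 more negative in calorimetry mice and Ndufb2 more positive, against 5.32% of all genes.

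By complex, the calorimetry difference was called for 26 of 36 genes of complex I, 0 of 4 of complex II, 4 of 8 of complex III, 8 of 16 of complex IV and 9 of 17 of complex V. The complex medians were -0.142, -0.062, -0.118, -0.211 and -0.099 in that order. In complex I the accessory subunits Ndufb6 (-0.39 ± 0.06, edgeR adjusted p = 6.68e-08), Ndufa7 (-0.36 ± 0.05, adjusted p = 1.99e-08) and Ndufa8 (-0.23 ± 0.04, adjusted p = 1.77e-07) fell. Ndufb6 had medians of 36.14 CPM on 12:12 (29.57 to 52.07) and 29.52 CPM on 11:11 (24.08 to 33.94) in calorimetry females, and of 94.44 (70.34 to 120.1) and 68.61 CPM (47.95 to 113.3) in calorimetry males. The ranges overlapped in both sexes. In running wheel mice female medians were 21.08 and 18.94 CPM, and male medians 29.36 and 31.99 CPM (0.010 ± 0.058).

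Ndufb2 moved against the other called genes, with 0.15 ± 0.06 in calorimetry mice (edgeR adjusted p = 0.041) and a difference between sets of 0.27 ± 0.08 (adjusted p = 0.0231). On 12:12 and 11:11 its medians were 8.468 and 9.861 CPM in calorimetry females and 9.917 and 10.92 CPM in calorimetry males, and in running wheel mice they were 7.85 and 7.571 in females and 9.846 and 8.715 in males. With the length slope as a covariate it stood at 0.094 in calorimetry mice (adjusted p = 0.321) and at 0.238 for the difference between sets (adjusted p = 0.0603), so neither call was kept. It also had the smallest p for a rhythm among the complex I genes of the atlas.

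In complex III Uqcr10 fell in both calorimetry sexes. Its females ran from 41.84 through 48.05 to 59.84 CPM on 12:12 and from 37.15 through 41.02 to 45.28 CPM on 11:11, and its males from 73.07 through 104.4 to 140.1 and from 64.93 through 84.15 to 106.3 CPM. The log2 difference was -0.30 ± 0.04 (edgeR adjusted p = 1.09e-08), and in running wheel mice -0.007 ± 0.042. The difference between sets was -0.29 ± 0.06 (adjusted p = 0.000594). Uqcrh, the hinge protein, and Uqcrq also fell, by 0.29 and 0.21 on the log2 scale.

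In complex IV Cox4i1 fell by 0.35 (SE 0.05, edgeR adjusted p = 1.24e-08). It had medians of 280.1 (228.3 to 355.7) and 228.4 CPM (200 to 263.9) on 12:12 and 11:11 in calorimetry females, and 768.4 (510.3 to 981.7) and 577.6 CPM (410.6 to 860.1) in calorimetry males. In running wheel mice female medians were 187.5 and 188 CPM, and male medians 226.4 and 235.6 CPM, with a difference of 0 ± 0.047. Cox4i1 overlaps Gm20388 on the same strand. Cox7c fell by 0.35 (SE 0.05) and the supercomplex factor Cox7a2l by 0.22 (SE 0.03). Of the isoform pairs, the ubiquitous Cox4i1, Cox6b1, Cox7a2 and Cox8a were called and Cox6a1 was not (-0.052 ± 0.043, adjusted p = 0.428). Their tissue-restricted partners were not called: Cox4i2 stood at 0.029 ± 0.139, Cox6a2 at 0.11 ± 0.10, Cox6b2 at -0.079 ± 0.184, Cox7a1 at -0.22 ± 0.11 and Cox8b at -0.20 ± 0.36. These rare genes have wide errors, and whether the partners differ was not tested.

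**Figure D4:**
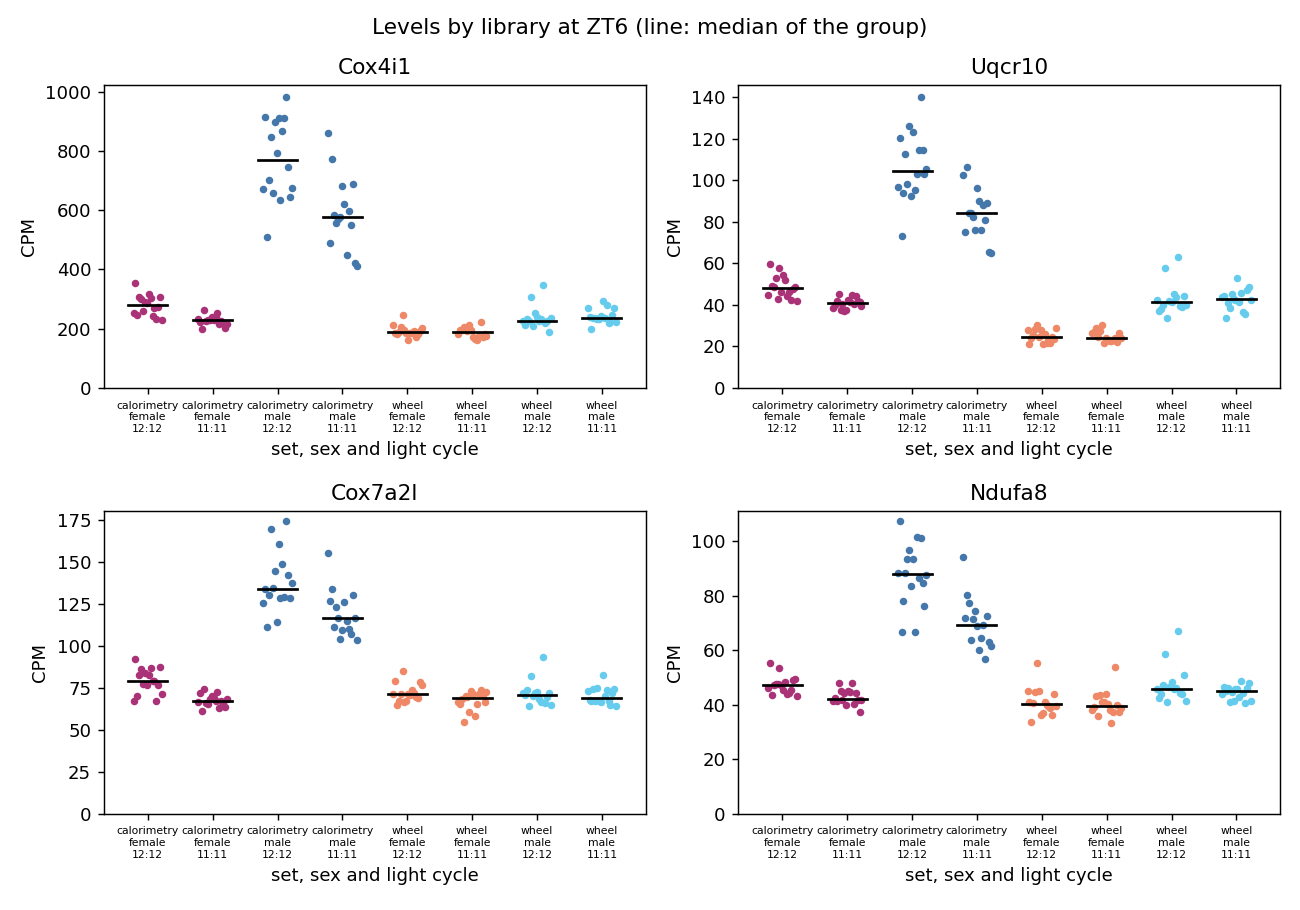
CPM (y axis, from 0) of Cox4i1, Uqcr10, Cox7a2l and Ndufa8 in the 126 ZT6 libraries, by set, sex and light cycle (x axis). Points are libraries and lines are medians. Calorimetry males stand highest, and within the calorimetry set the 11:11 medians lie below the 12:12 medians, as for Cox4i1 with 577.6 and 768.4 CPM in males.

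In complex V Atp5l, the membrane subunit g, fell by 0.25 (SE 0.04, edgeR adjusted p = 8.28e-06), Atp5e by 0.32 (SE 0.07, adjusted p = 0.000197) and Atp5mpl by 0.25 (SE 0.06). Of the rotor genes Atp5g1 (-0.099 ± 0.028) and Atp5g3 (-0.10 ± 0.04) were called and Atp5g2 (-0.062 ± 0.046) was not. The catalytic core gene Atp5b stood at -0.012 ± 0.021 (adjusted p = 0.753), and the subunits of succinate dehydrogenase lay between -0.08 and 0.04.

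By sex, 38 genes were called in calorimetry females, all lower on 11:11 (12.3% of all genes called, median -0.151), and 31 in calorimetry males, 30 lower and Sdha higher (13.5%, median -0.124). They shared 24 genes, 63.2% of the female and 77.4% of the male calls. Whether the 2 sexes differ was not tested. Among females Sdhb, Sdhc and Sdhd fell by 0.14 to 0.15, for example Sdhb (-0.14 ± 0.04, edgeR adjusted p = 0.0179), with medians of 76.78 and 70.02 CPM. In males Sdhb had 88.82 and 92.23 CPM. Cox4i1 fell in both, by 0.29 (SE 0.07) in females and 0.40 (SE 0.07) in males.

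The length slope moved with the light cycle within the calorimetry set. Its median went from -0.020 on 12:12 to 0.005 on 11:11 in females and from -0.075 to -0.055 in males, while in running wheel mice it was 0.067 and 0.073 in females and 0.010 and 0.007 in males. With the slope as a covariate, 27 of the 47 genes called in calorimetry mice kept their call and direction, 9 of 38 in females, 24 of 31 in males and 18 of the 29 called between sets. The 11 genes not kept between sets had adjusted p values from 0.0520 (Ndufa8, -0.179 without and -0.147 with the slope) to 0.0822 (Ndufb10, -0.217 and -0.172), and some values hardly moved, such as Atp5f1 at -0.155 and -0.148. With the coding transcript length slope the counts kept were 14, 0, 19 and 8. Cox4i1 then stood at -0.19 in calorimetry mice (edgeR adjusted p = 0.000154), Uqcr10 at -0.17 (adjusted p = 9e-04), Ndufb6 at -0.24 (adjusted p = 0.00097) and Atp5e at -0.12 (adjusted p = 0.205). Across members the calorimetry difference rose with coding length (Pearson r = 0.50 across genes; 0.18 over all coding genes), and 42 of 61 genes of at most 600 coding bases were called, against 5 of 20 longer ones. Leaving out replicate 2 of every group left 11 genes called in females, replicate 4 left 17 in females, and replicate 3 left 11 in males. The genes called between sets numbered 8 without replicate 2, 15 without replicate 3 and 13 without replicate 4.

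**Figure D5:**
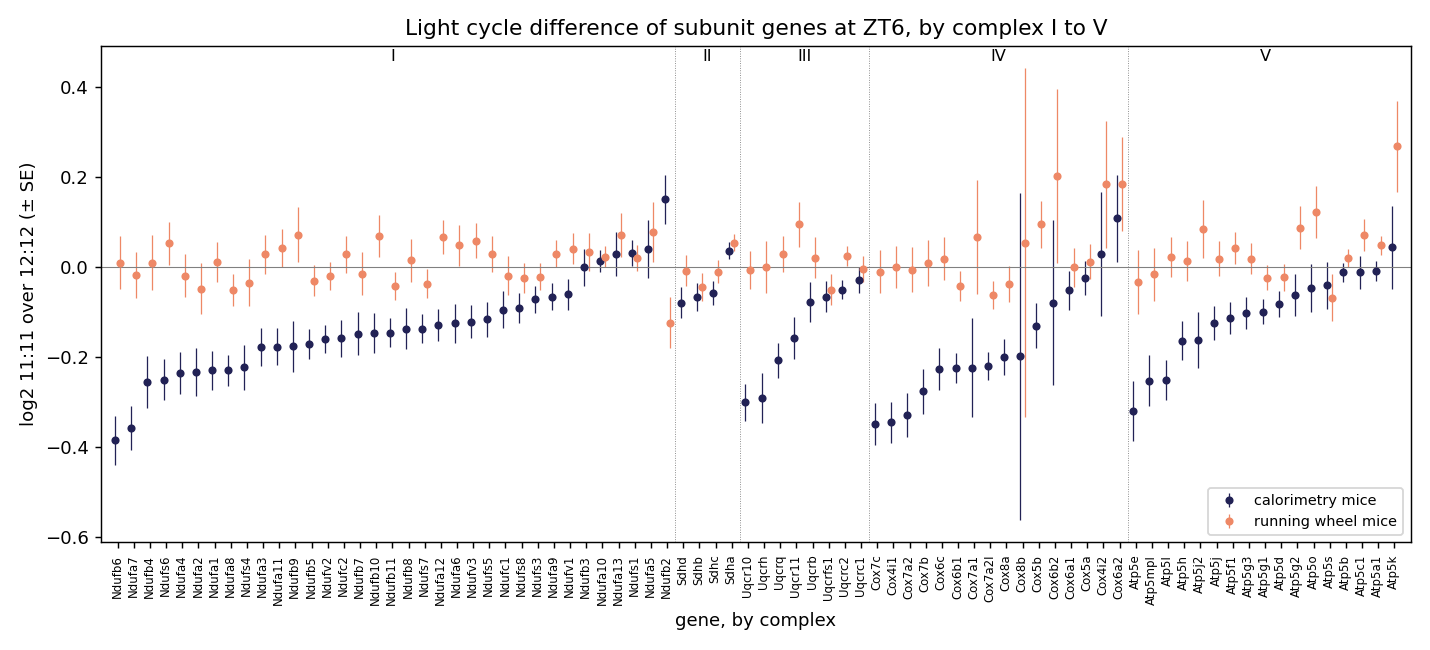
Log2 difference between 11:11 and 12:12 (y axis, with standard error) of the tested subunit genes shown (x axis, grouped by complex I to V and sorted by the calorimetry value), in calorimetry mice (dark) and running wheel mice (orange). Most dark points lie below 0, with Ndufb6 lowest at -0.39 and Ndufb2 highest at 0.15, and orange points scatter around 0.

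Other genes of the pathway in calorimetry mice are given for reference. The mitochondrially encoded subunits had 5 of 12 called, all higher on 11:11 (median 0.318), among them mt-Atp6 (0.40 ± 0.10) and mt-Co2 (0.31 ± 0.09). The median share of counts from the mitochondrial genome was 1.32% on 12:12 and 1.88% on 11:11 in calorimetry males. In calorimetry females it was 2.03% and 1.93%, and whether the sexes differ was not tested. Assembly factors had 14 lower and 2 higher of 48 (median -0.068), with the complex IV factors Cox14 (-0.32 ± 0.04) and Coa3 (-0.21 ± 0.04) among the lower. Ndufab1 (-0.087 ± 0.036) and Cyc1 (-0.080 ± 0.032), subunits outside the rule, did not pass (adjusted p = 0.0803 and 0.0645). Ppargc1a, the coactivator of mitochondrial biogenesis, was higher (0.11 ± 0.04, edgeR adjusted p = 0.0235), and Nrf1 (0.021 ± 0.038) and Tfam (0.029 ± 0.042) were not called. The other regulators of mitochondrial biogenesis are not given here for this comparison. Citrate cycle enzymes had 2 higher and 0 lower of 21 (median 0.016). Cytosolic ribosomal protein genes had 63 lower of 76 (median -0.238). Blood markers were lower in 3 of 5 cases (median -0.461; sums of 68.3 to 376 CPM on 12:12 and 44.3 to 281 on 11:11), and their part in the subunit difference was not tested.

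Genotype left no called subunit gene. The 3 comparisons share the WT/WT libraries. In edgeR 0 of 81 were called for the libraries labelled HET/WT (0.0425% of all genes; 4 members at an unadjusted p under 0.05), 0 for WT/TG (0.0159%; 2) and 0 for HET/TG (0.0478%; 2), and DESeq2 called 0 in each. Over all 18841 genes, 1206, 803 and 1144 had an unadjusted p under 0.05 in the same order. The members' medians were 0.029, 0.004 and -0.010. Sdhb had the smallest p in complex II for the libraries labelled HET/WT (0.067 ± 0.031, adjusted p = 0.743), with 56.82, 74.19 and 111.8 CPM as lowest, median and highest against 61.37, 73.27 and 100.3 CPM in WT/WT. In HET/TG it ran from 57.19 through 70.13 to 95.44 CPM, and in WT/TG from 56.61 through 73.52 to 102.3 CPM. The 4 genotypes overlapped along nearly their whole ranges. The smallest p of complex IV in HET/TG belonged to the testis isoform gene Cox6b2 (0.51 ± 0.19, adjusted p = 0.687), which is near the limit of detection with medians of 0.6905 CPM in HET/TG and 0.5194 CPM in WT/WT.

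The effect of HET/WT did not pass the test for differing by light cycle or by set (edgeR, 0 of 81 and 0% of all genes called in each). DESeq2 called 0 in both. At an unadjusted p under 0.05 there was 1 member by light cycle and 19 by set, against 1331 and 812 of all 18841 genes. By set, 68 of 81 members lay below 0, with a median of -0.110, and by p the first were Ndufb3 (-0.28 ± 0.08, edgeR adjusted p = 1) and Atp5o (-0.36 ± 0.11). This difference also ran with coding length across members (Pearson r = 0.55, and 0.10 over all coding genes), and without a filter on low counts 6 members were called. The share of all genes called without that filter is not given here, so these 6 calls cannot be called particular to the subunit genes.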

How the data were processed

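Raw counts per gene came from 2 tables that the authors deposited without normalization, for the atlas and for ZT6. Per the labels' protocols, total RNA was depleted of ribosomal RNA and made into directional NEBNext Ultra II libraries. Tools named in the submitters' processing notes are STAR, Trim Galore, limma and SAMtools, and the build is mm10. What counted the reads, with which gene models and strand setting, is not given in the sources used here. Hence 36 members that overlap another gene, 6 of them a protein-coding gene on the same strand, and members with near-identical pseudogenes are uncertain.

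Each table was fitted over all genes in R 4.3.3 with edgeR 4.0.16 (filterByExpr, TMM, robust quasi-likelihood test, Benjamini-Hochberg over all genes tested, threshold 0.05). That kept 17193 genes in the atlas and 18841 at ZT6. The atlas model had sex and a 24 h cosine and sine. The ZT6 model had a mean for each of 32 groups, with contrasts averaged at equal weight. Differences are log2 ± standard error, and levels are CPM scaled by TMM. The script was tested on simulated counts. Alternatives were DESeq2 1.42.0, RLE scaling, no filter, a replicate block, each replicate left out, single libraries left out, and length slopes as covariates. Named genes are, per comparison and complex, up to 3 called members in each direction by smallest p (up to 1 with no call), isoform families, and called members against the main direction. The complete values of up to 8 recurring members were planned; Ndufb6, Ndufb2, Cox6a2, Atp5g1, Sdha and Ndufs7 are given in addition, chosen after their values were seen, as were Atp5b, Ndufa4, Atp5a1 and Cox6c for their levels and Ndufb3, Atp5o and the genes outside the rule. The values of 1 member are not reported here and are not shown by gene, though it counts in every total. The members and lists were chosen with earlier results of these data known.

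Labels do not pair mice. On average, libraries with the same replicate number hardly deviated together (mean correlation 0.005 in the atlas and 0.008 at ZT6, lowest -0.33 and -0.29). The means for other numbers were -0.001 and -0.003. Still, 25 of 92 atlas and 43 of 126 ZT6 libraries correlated best with their own number. How many would do so by chance is not given here, so these counts do not show pairing. No 2 libraries of a group were identical (lowest chi-square per gene 3.09). The written design counted the 1 labelled sample that was not analysed here. Precision rests on the number of mice, and counts under 1 CPM carry few reads.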

Additional observations from a re-analysis of the deposited data

Results flagged for a closer look

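The light cycle difference was not the same in the 2 sets for 29 of the 81 subunit genes tested (edgeR interaction test, adjusted over all genes). Over all genes tested, 5.32% were called. The difference in calorimetry mice minus that in running wheel mice was -0.40 for Ndufb6, -0.35 for Cox4i1, -0.34 for both Cox7c and Ndufa7, -0.32 for Cox7a2, -0.30 for Ndufs6, -0.29 for Uqcr10, -0.27 for Atp5l, -0.25 for Uqcr11, -0.24 for Uqcrq and -0.15 for Atp5f1. Ndufb2 went the other way, at 0.27. The length slope of the libraries moved with the light cycle in calorimetry mice (medians of -0.020 and 0.005 in females) and less in running wheel mice (0.067 and 0.073 in females), and 18 of the 29 calls were kept with it as a covariate. Of the 11 others, Ndufb2 stood at 0.238 and Atp5f1 at -0.148 with the slope (adjusted p = 0.0603 and 0.0663). With the coding transcript length slope 8 of the 29 calls were kept. Leaving out each replicate number in turn gave 8 to 25 called members.

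In the atlas, 1 library at ZT21 stood apart for Cox4i1 with 288.6 CPM, where the 10 libraries of that time had a median of 256.9 CPM. Such a gap is met by chance in about 1 in 20 groups drawn from a single population. These 10 libraries pool 5 of each sex, and Cox4i1 was higher in males of the atlas (0.09).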

How the results depend on the processing

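The number of called subunit genes depended on the length slope covariates, on which replicates were left out and, for the rhythm, on the model and the sexes fitted. With the planned slope on exon length the calls fell to 12 of 29 for the light cycle over both sets, 27 of 47 in calorimetry mice, 9 of 38 in calorimetry females and 18 of 29 for the difference between sets. With the slope on coding transcript length, chosen after seeing the data, 6, 14, 0 and 8 of the same calls were kept. In all, 8, 15, 0 and 8 members were then called in these comparisons. Between sets 40 were called, between sets in males 34 and between sexes at ZT6 31. The 8 for the light cycle over both sets included Ndufa13 (0.118) and Atp5k (0.247), newly called and higher on 11:11. Sdhc turned to -0.03 between sets with the exon slope. With the coding slope Sdhb and Sdhc turned to -0.04 and -0.17 between sets, to -0.06 and -0.06 between sets in males and to -0.01 and -0.14 between sexes at ZT6, Sdhb to -0.02 between sets in females, and Uqcrq to 0.01 for the light cycle in calorimetry females. The cause was not tested.

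The rhythm was called for 7 members with time as a factor, 3 in females alone and 5 in males alone. Without an expression filter 1 member was called for the light cycle in running wheel mice and 6 for HET/WT by set. The share of all genes called under that setting is not given here. Leaving out each replicate number in turn gave 4 to 13 members for the rhythm, 17 to 27 for the light cycle, 11 to 44 for it among females of the calorimetry set, 11 to 29 among its males and 8 to 25 for the difference between sets. With a replicate block 11 members were called for the rhythm, 47 for atlas sex, 48, 37 and 34 for the light cycle in calorimetry mice, females and males, and 29 between sets. Labels share numbers only, and 25 of 92 atlas and 43 of 126 ZT6 libraries correlated best with their own number, with no chance rate given here. DESeq2, RLE scaling, the block and leaving out single libraries moved no count by over 1.5 times. For a selection of single genes, 2288 values kept direction and call, 167 lost the call, 3 gained it and 9 reversed. These counts do not cover every member in every comparison. Between sexes at ZT6, further genes called higher in males also turned below 0 with the coding slope. Examples are Ndufv1 (0.177 without and -0.101 with it) and Uqcrc1 (0.127 and -0.095).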
